A study of Zea mays subsp. mays and Zea mays subsp. parviglumis and Zea luxurians with 126 samples.

Results

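A *cis* site is a position at which a small RNA pairs with the precursor of its own locus and the precursor carries a cleaved 5′ end. The phased small interfering RNAs of 21 nt (21-nt phasiRNAs) of grass anthers are made from long noncoding transcripts of *21-PHAS* loci. The microRNA miR2118 guides the first cut of such a transcript, an RNA-dependent RNA polymerase of the RDR6 type makes the complementary strand, and a Dicer of the DCL4 type then cuts the duplex every 21 nt from the miR2118 cut. Small RNAs of the complementary strand match the precursor perfectly, so each can in principle direct an ARGONAUTE protein back to the transcript it came from. The members described here were the *21-PHAS* loci whose own phasiRNA was listed against the locus itself in at least 1 library. There were 369 such loci, of 1779 *21-PHAS* loci with any listed miRNA or phasiRNA site, and they filled 622 of the 88804 rows of the phasiRNA tables.

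The 63 libraries came from anthers of 4 maize inbred lines (Oh43, Il14H, HP301 and B73) at 0.4 mm (premeiotic) and 2 mm (meiotic), and from 3 teosintes. TIL11 (*Zea mays* subsp. *parviglumis*) was sampled at 0.4 and 0.7 mm (premeiotic), 1 mm (between the phases) and 1.5 and 2 mm (meiotic), RIL003 (*Zea luxurians*) at 0.4 and 0.7 mm (premeiotic) and 1.5 mm (meiotic), and TIL25 (*Zea mays* subsp. *mexicana*) at 0.4 mm (premeiotic) and 1.5 mm (with no phase given for this length). AGO18 proteins form an ARGONAUTE clade of grasses. Transgene-free *ago18* plants, labelled as mostly B73, were sampled at 0.5 mm (premeiotic), 2 mm (meiotic) and 5 mm (postmeiotic), either homozygous for mutations in all 3 *AGO18* genes (ago18HM) or heterozygous at all 3 (ago18HT). The ago18HT controls therefore carried every mutant allele too, and maize was grown in a greenhouse whereas the teosintes were grown in a growth chamber. Each group had 2 or 3 replicates from different plants, and the depth recovered from the tables, the inverse of what 1 read is worth in RPM (reads per M reads of the library, M for mega), ran from 1.35 to 18.7 M reads per library.

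Cleaved ends were read by nanoPARE, which sequences 5′ ends of RNA, and each predicted site had a value in RPM, an Allen score of mispairing (0 for a perfect match) and an adjusted p-value. A *cis* site was said to pass at an adjusted p below 0.05. Of the 622 rows, 615 passed, at 367 loci, whereas 5.41% of all listed phasiRNA sites passed. The threshold selected almost nothing among the members, since 613 rows had an Allen score of 0 and all 613 passed, and so did all 1257 perfect-match rows of other phasiRNA pairs. Of the 9 *cis* rows above an Allen score of 0, 2 passed. The signal was sparse: 272 of the 615 passing sites rested on exactly 1 read, 23 on a fraction of 1 read, 76 on 5 or more and 23 on 10 or more. The median was 2 reads, and the highest value was 44 reads at Il14H_21PHAS_4200. A count of loci thus depends on depth, and intervals given below cover counting error only.

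The small RNA that stands for a locus in the tables was taken to be its most abundant one (the major RNA), which was inferred from the tables and is not stated in the methods. The sequences, first nucleotides and shared RNAs below rest on it. Of 91 major RNAs that belong to several loci of the same variety, none had more than 1 of these loci named as source, and of 37 perfect-match pairs between different loci, 11 joined loci with the same major RNA. Those pairs are *trans* by name and are not among the members. Each member had 1 position, except for 2 loci with several (B73_21PHAS_54597 and TIL11_21PHAS_45236), because the position is set by where the major RNA pairs. A repeat of the position in another library is therefore no evidence beyond the repeat of the locus.

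The sequences below belong to some, not all, of the loci that recurred most within a variety. B73_21PHAS_7638, which had the highest value in the B73 libraries, is printed too. Major RNAs with a passing *cis* site in 3 varieties are included, except those of Il14H_21PHAS_28711 and B73_21PHAS_54597. The sequences are written 5′ to 3′, with nucleotides 10 and 11 in capitals, because the cut of the target falls opposite these. Positions are 1-based on the B73 RefGen_v5 assembly for B73 and on the version 1 assembly of the variety otherwise.
TIL11_21PHAS_9791: uuguggcacAUgacugaacug
TIL11_21PHAS_40088: uuucuugauGGuugcauguuc
TIL11_21PHAS_6204: ucaucggucUUccugguugga
TIL11_21PHAS_8506: uuggugucgAAcaaugaggcu
TIL11_21PHAS_8514: uguugaagcUCgcagacuugu
TIL11_21PHAS_8522: uaauuggugUUgaaacauggc
Il14H_21PHAS_4200: uuaugggagAAaaugugaauc
Il14H_21PHAS_23702: ucaucgaagUAcagcggauaa
TIL25_21PHAS_22575: cuaaauaggAGaguagaacua
B73_21PHAS_7638: uagugcggcAGcaaaaauguc
B73_21PHAS_27690: ucggcuguuUCguuggaauug
B73_21PHAS_47038: cuagauuugUUgcugaccuaa
B73_21PHAS_12183: augccaaugUUugacugcuau
B73_21PHAS_54533: acacaguaaUCcgagacacag
Oh43_21PHAS_2918: auugucaucUCgaggaagcuc
TIL11_21PHAS_9791 lies at chr2:163046921-163048547 of TIL11, Il14H_21PHAS_4200 at chr1:282755226-282756202 of Il14H, and B73_21PHAS_7638, B73_21PHAS_27690 and B73_21PHAS_47038 at chr1:290210637-290212261, chr5:13705875-13706970 and chr8:165510768-165511868 of B73. None of these 3 B73 loci overlaps a RefSeq gene. Among all 67 B73 loci with a passing *cis* site, 6 overlapped one (8.96%), against 25 of the other 363 B73 loci with a major RNA (6.89%).

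*cis* sites were a feature of premeiotic anthers in every maize inbred line. At 0.4 mm, B73 had 20 and 25 loci with a passing *cis* site, HP301 had 12 and 15, Il14H had 26, 31 and 32, and Oh43 had 15 and 11. At 2 mm, the 9 libraries had 0, 1 or 2 loci each. No 2-mm library overlapped the 0.4-mm libraries, and 4.17% of all phasiRNA sites listed at 0.4 mm passed, against 1.55% at 2 mm. The mean was 20.8 ± 8.03 loci (SD, n = 9) at 0.4 mm and 0.778 ± 0.833 (n = 9) at 2 mm, a difference of 3.67 on the log2(loci + 1) scale (exact two-sided permutation test with labels exchanged within a line, p = 0.000278, the smallest it can give, adjusted p = 0.00194 by Benjamini-Hochberg over 14 tests). The summed RPM of the sites differed the same way, from 4.99 ± 3.14 to 0.119 ± 0.146 (adjusted p = 0.00194, exact permutation test). Loci with a passing miR2118 site fell alongside, from 92 to 134 per library at 0.4 mm to 1 to 8 at 2 mm. In cleaved ends from bulk anthers, fewer cells that make a transcript, less transcript per cell and less cutting of it cannot be told apart.

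**Figure D1:**
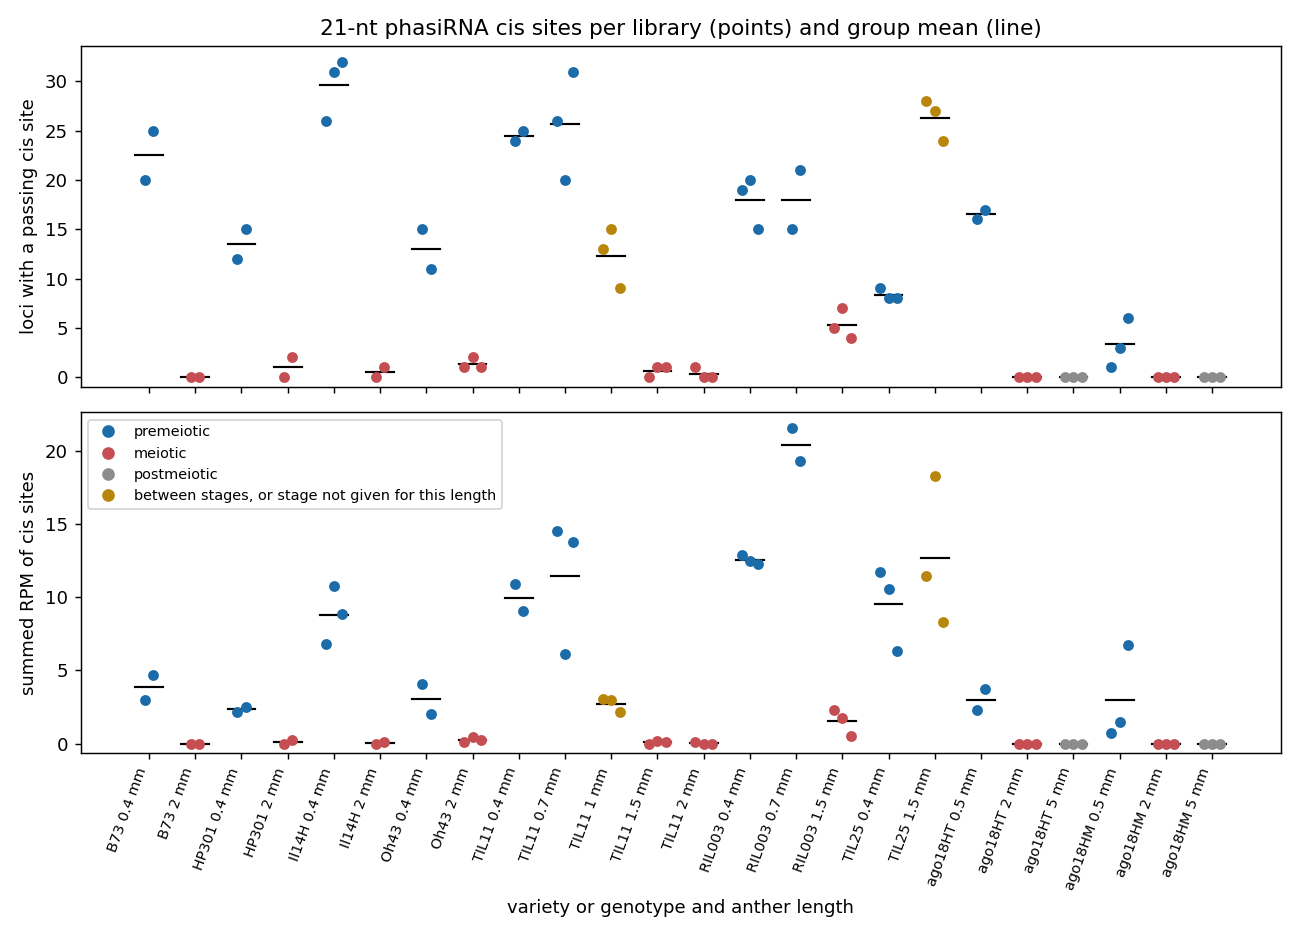
Number of *21-PHAS* loci with a passing *cis* site (top) and summed RPM of these sites (bottom) in each library, by variety or genotype and anther length. Points are libraries, coloured by phase, and lines are group means. The 0.4-mm maize libraries sit between 11 and 32 loci, the 2-mm ones between 0 and 2, and TIL25 is the variety with more loci at its longest length than at 0.4 mm.

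TIL11 followed the maize lines, and its intermediate lengths placed the decline between 0.7 and 1.5 mm. The libraries had 24 and 25 *cis* loci at 0.4 mm, 26, 20 and 31 at 0.7 mm, 13, 15 and 9 at 1 mm, 0, 1 and 1 at 1.5 mm, and 1, 0 and 0 at 2 mm. The 1-mm libraries all lay below the premeiotic and above the meiotic ones, with no overlap on either side. Premeiotic TIL11 had 25.2 ± 3.96 loci (SD, n = 5) against 0.5 ± 0.548 (n = 6) in meiotic anthers (exact permutation test, p = 0.00216, the smallest it can give, adjusted p = 0.00758). The summed RPM was 10.9 ± 3.47 against 0.0690 ± 0.0823 (adjusted p = 0.00758, exact permutation test). Of all phasiRNA sites listed, 6.4% passed in the premeiotic libraries and 2.95% in the meiotic ones. The premeiotic lengths shared 17 loci, which were 44.7% of the 38 at 0.4 mm and 33.3% of the 51 at 0.7 mm, and 16 of the 29 loci at 1 mm (55.2%) were also found at 0.7 mm.

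In RIL003 the *cis* sites were likewise fewer at the longest length, but they did not vanish. There were 19, 20 and 15 loci at 0.4 mm, 15 and 21 at 0.7 mm, and 5, 7 and 4 at 1.5 mm, with no overlap between the premeiotic and the meiotic libraries. The means were 18 ± 2.83 loci (SD, n = 5) and 5.33 ± 1.53 (n = 3), and the summed RPM was 15.7 ± 4.39 and 1.53 ± 0.934 (exact permutation tests, p = 0.0179 for each, the smallest possible, adjusted p = 0.0313). The meiotic libraries were the deeper ones, at 7.31 to 8 M reads against 3.20 to 4.73 M. Of all listed phasiRNA sites, 17.8% passed in the premeiotic and 17.9% in the meiotic libraries. Both calls were lost when any 1 of the 8 libraries was left out, with adjusted p from 0.05 to 0.0833, because fewer exchanges of labels remain. Of the 10 loci at 1.5 mm, 7 (70%) were also among the 35 found at 0.4 mm, and 7 were among the 28 found at 0.7 mm.

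TIL25 was the variety with more *cis* loci at the longer anther length. The 0.4-mm libraries had 9, 8 and 8 loci and the 1.5-mm libraries had 28, 27 and 24, without overlap. With 3 libraries against 3 the exact permutation test cannot go below p = 0.1, which it gave (adjusted p = 0.14). The summed RPM overlapped between the lengths, at 11.7, 10.6 and 6.30 at 0.4 mm and 11.4, 18.3 and 8.32 at 1.5 mm (exact permutation test, p = 0.5, adjusted p = 0.583). Depth moved with length, at 1.71 to 2.56 M reads at 0.4 mm and 4.33 to 5.97 M at 1.5 mm. Thinned to 1.71 M reads, an alternative chosen after seeing the data, the expected numbers were 6.72 to 8 and 11 to 17.3 loci, still without overlap. When a site had to reach the RPM of 1 read of the shallowest library, the difference shrank from -1.55 to -0.03 on the log2(loci + 1) scale. Divided by depth, the libraries had 3.36 to 4.69 loci per M reads at 0.4 mm and 4.54 to 6.23 at 1.5 mm. These ranges overlapped (exact permutation test, adjusted p = 0.42). Loci with a passing miR2118 site numbered 53 to 74 at 0.4 mm and 76 to 95 at 1.5 mm. Of all listed phasiRNA sites, 13.4% passed at 0.4 mm and 16.2% at 1.5 mm. Of the 20 loci at 0.4 mm, 13 (65.0%) were among the 53 at 1.5 mm.

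**Figure D2:**
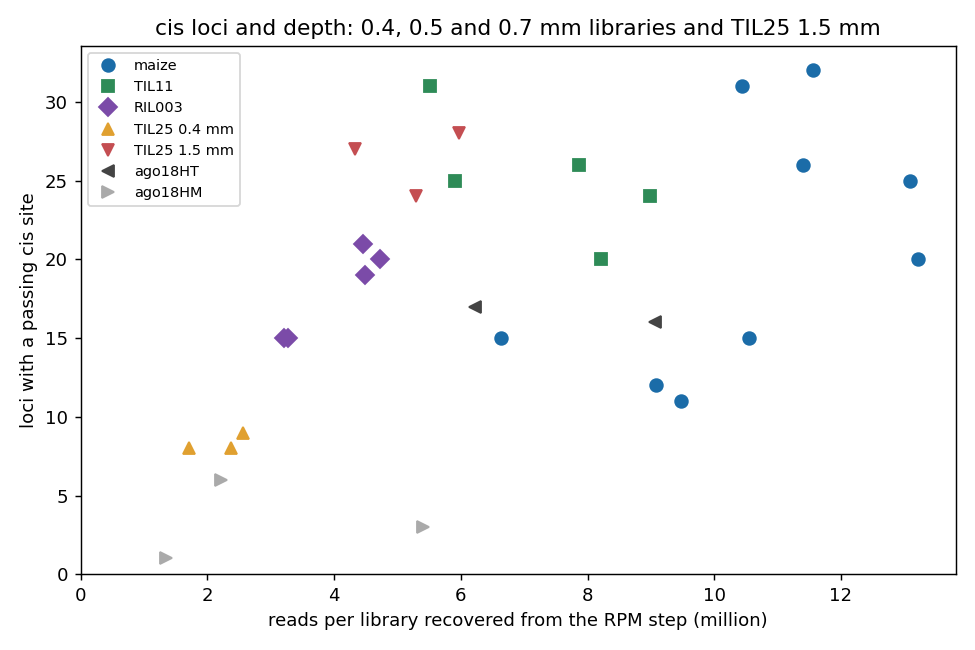
Number of *21-PHAS* loci with a passing *cis* site against the reads per library (M), for the 0.4-, 0.5- and 0.7-mm libraries and TIL25 at 1.5 mm. Each point is a library. The libraries of TIL25 at 0.4 mm and of ago18HM at 0.5 mm have the lowest numbers, from 1 to 9 loci.

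At 0.4 mm the numbers of *cis* loci in the maize lines and the teosintes overlapped, in libraries of unequal depth. The variety means were 13.0 to 29.7 loci in the 4 maize lines and 8.33 to 24.5 in the 3 teosintes, with a log2 difference of 0.24 between their averages (exact permutation test over varieties, p = 0.686, adjusted p = 0.7). The summed RPM averaged 4.51 ± 2.93 in maize (SD, n = 4 varieties) and 10.7 ± 1.63 in the teosintes (n = 3), without overlap between varieties, and the difference did not pass (exact permutation test, p = 0.0571, adjusted p = 0.0889). Of all phasiRNA sites listed, 4.17% passed in maize and 12.3% in the teosintes. Divided by depth, the variety means were 1.37 to 2.67 loci per M reads in maize and 3.45 to 4.35 in the teosintes, a difference of -2.02 loci per M reads with no log (exact permutation test, adjusted p = 0.0444), so the direction depends on how depth is treated. Thinned to 1.71 M reads, again chosen after seeing the data, the 0.4-mm libraries of RIL003 and TIL11 had an expected 9.50 to 12.3 loci, those of TIL25 6.72 to 8, those of Il14H 7.76 to 10.1, and those of the other maize lines 3.12 to 6.44. These are the same 0.4-mm libraries as in the comparisons of lengths. Depth, growth conditions and assembly also differ between maize and teosintes, and their part in the result was not tested.

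In the *ago18* series, all passing *cis* sites were at 0.5 mm. ago18HT had 16 and 17 loci there, ago18HM had 1, 3 and 6, and all 12 libraries of 2 and 5 mm had 0. Both genotypes together had 8.60 ± 7.44 loci at 0.5 mm (SD, n = 5) and 0 at 2 mm (n = 6), a difference that passed for loci and for summed RPM (exact permutation tests with labels exchanged within a genotype, p = 0.005, the smallest possible, adjusted p = 0.0117). Both calls were lost (exact permutation tests, adjusted p = 0.0875) when a site had to reach the RPM of 1 read of the shallowest library, where the log2 difference in loci went from 2.81 to 0.72, and also when labels were exchanged only within replicate numbers (adjusted p = 0.0547). Of all listed phasiRNA sites, 7.22% passed at 0.5 mm and 1.12% at 2 mm.

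Genotype and depth could not be told apart in the *ago18* counts. The 0.5-mm numbers of ago18HM and ago18HT did not overlap, but the test over the 3 lengths gave p = 0.4 for loci and 0.7 for summed RPM (exact permutation tests, adjusted p = 0.509 and 0.7), with 12 of the 17 libraries at 0. At 0.5 mm alone, chosen after seeing the data, the log2 difference in loci was -2.19, against -0.39 over the 3 lengths (exact permutation test, p = 0.1, the smallest possible, adjusted p = 0.127). Of all listed phasiRNA sites, 1.35% passed in ago18HM and 2.61% in ago18HT. The ago18HM libraries held 1.35, 5.40 and 2.22 M reads at 0.5 mm, and the ago18HT libraries 9.06 and 6.22 M. Thinned to 1.35 M reads, in the same alternative, ago18HT had an expected 2.99 and 4.66 loci and ago18HM 1.00, 1.45 and 4.27, so the ranges overlapped. Loci per M reads were 0.743, 0.555 and 2.70 in ago18HM and 1.77 and 2.73 in ago18HT. The libraries of the 2 genotypes nearest in depth, at 5.40 M reads in ago18HM and 6.22 M in ago18HT, had 3 and 17 loci. They listed 665 and 1525 phasiRNA sites. This is 1 library against 1, and the difference was not tested. Summed RPM was 0.743, 1.48 and 6.76 in ago18HM and 2.32 and 3.70 in ago18HT, and in the highest ago18HM library B73_21PHAS_27690 alone gave 4.06 RPM from 9 reads. Loci with a passing miR2118 site were also fewer in ago18HM, at 39, 66 and 67 against 119 and 102. The genotype and stage comparisons share the 0.5- and 2-mm libraries.

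On B73 loci, the 3 premeiotic groups overlapped in part. B73 at 0.4 mm had 39 loci in its 2 libraries together, ago18HT at 0.5 mm had 31 and ago18HM at 0.5 mm had 10. The B73 and ago18HT lists shared 8 loci (20.5% and 25.8% of each), and 5 of the 10 ago18HM loci (50%) were in one or the other. B73_21PHAS_27690 was the only locus found in all 3 groups, with 0.305 RPM in 1 B73 library, 0.322 RPM in 1 ago18HT library and 4.06 RPM in 1 ago18HM library. B73_21PHAS_47038 gave 0.151 and 0.229 RPM in the B73 libraries and 0.902 RPM in 1 ago18HM library, the last from 2 reads. Thus no *cis* locus was detected in more than 1 ago18HM library.

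Requiring a locus in at least 2 replicates of a group, a criterion taken over from the study, left 90 loci in 15 of the 24 groups. The background share of phasiRNA pairs that met this criterion was 1.89%. The 0.4-mm groups had 20 positive loci in Il14H, 13 in RIL003, 11 in TIL11, 6 in B73, 5 in Oh43, 3 in TIL25 and 2 in HP301, and ago18HT at 0.5 mm had 2 whereas ago18HM had 0. These numbers are not on an equal footing. Il14H, RIL003, TIL25 and ago18HM had 3 replicates at these lengths, and TIL11, B73, Oh43, HP301 and ago18HT had 2. At later lengths there were 17 in TIL11 at 0.7 mm, 6 at 1 mm and 1 at 1.5 mm, 8 in RIL003 at 0.7 mm and 3 at 1.5 mm, 18 in TIL25 at 1.5 mm and 1 in Oh43 at 2 mm. Recurrence rose with the reads behind a site, with groups of 2 and of 3 replicates pooled. The reads were the highest over the replicates in which the locus passed, so part of this rise is built in. Where the highest value of a locus in a group was at most 1 read, 16 of 219 recurred (7.31%, Wilson 95% interval 4.55 to 11.5%). Between 1 and 5 reads, 57 of 184 did (31.0%, 24.7 to 38.0%), and at 5 or more reads, 43 of 54 did (79.6%, 67.1 to 88.2%). A missing locus in a second replicate is therefore not detectable as an absence at these depths. Requiring 2 reads in each replicate reduced the 116 pairs of locus and group to 63.

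Il14H_21PHAS_4200 had the strongest *cis* site of a maize line. It gave 1.67, 4.21 and 2.85 RPM in the 0.4-mm libraries (19, 44 and 33 reads) and did not pass in either 2-mm library. B73_21PHAS_7638 was the strongest site of the B73 libraries, with 0.454 and 0.916 RPM at 0.4 mm (6 and 12 reads), and it passed in no *ago18* library. Of the positive loci, 70 were positive in 1 group, while 14 were positive in 2 groups and 6 in 3. Oh43_21PHAS_5853 was the single maize locus positive at both lengths, with 0.151 and 0.422 RPM at 0.4 mm and 0.278 and 0.224 RPM in 2 of 3 libraries at 2 mm, from 1 to 4 reads each.

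Among the teosintes, TIL11_21PHAS_9791 passed in 8 libraries. Its values were 3 and 1.02 RPM at 0.4 mm, 2.16, 0.366 and 1.27 RPM at 0.7 mm, and 0.653, 0.467 and 0.163 RPM at 1 mm, and it passed in no library of 1.5 or 2 mm. The 1-mm values thus overlapped those at 0.7 mm but not those at 0.4 mm. TIL11_21PHAS_6204 gave 0.445 and 1.35 RPM at 0.4 mm, 0.127, 0.244 and 0.907 RPM at 0.7 mm and 0.109 RPM in 1 library at 1 mm. TIL11_21PHAS_8506 passed in 6 libraries of the same 3 lengths, at 0.00490 to 0.907 RPM.

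RIL003_21PHAS_4106 and RIL003_21PHAS_4141 passed in all 8 RIL003 libraries. RIL003_21PHAS_4106 gave 1.56, 3.81 and 1.84 RPM at 0.4 mm, 2.81 and 2.69 RPM at 0.7 mm and 0.410, 0.406 and 0.125 RPM at 1.5 mm, so every meiotic value was below every premeiotic one. RIL003_21PHAS_4141 gave 2.23, 0.634 and 1.53 RPM, then 3.75 and 5.16 RPM, then 1.50, 0.270 and 0.125 RPM at the same lengths, and here the 0.4- and 1.5-mm values overlapped. RIL003_21PHAS_32423 passed in 7 libraries at 0.125 to 0.624 RPM, on 1 or 2 reads each. In TIL25 only TIL25_21PHAS_5428 passed in all 6 libraries, with 0.390, 1.76 and 0.421 RPM at 0.4 mm and 0.502, 0.462 and 0.189 RPM at 1.5 mm. TIL25_21PHAS_3459, whose major RNA is that of TIL11_21PHAS_6204, gave 3.90, 1.17 and 1.26 RPM at 0.4 mm and 0.335 and 0.756 RPM in 2 libraries at 1.5 mm. The TIL25_21PHAS_5428 values overlapped between the lengths, on 1 to 3 reads each, whereas the TIL25_21PHAS_3459 values at 1.5 mm were all below those at 0.4 mm. TIL25_21PHAS_22332 passed in 1 library at 0.4 mm (1.76 RPM) and in 3 at 1.5 mm (0.335, 1.39 and 0.946 RPM).

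**Figure D3:**
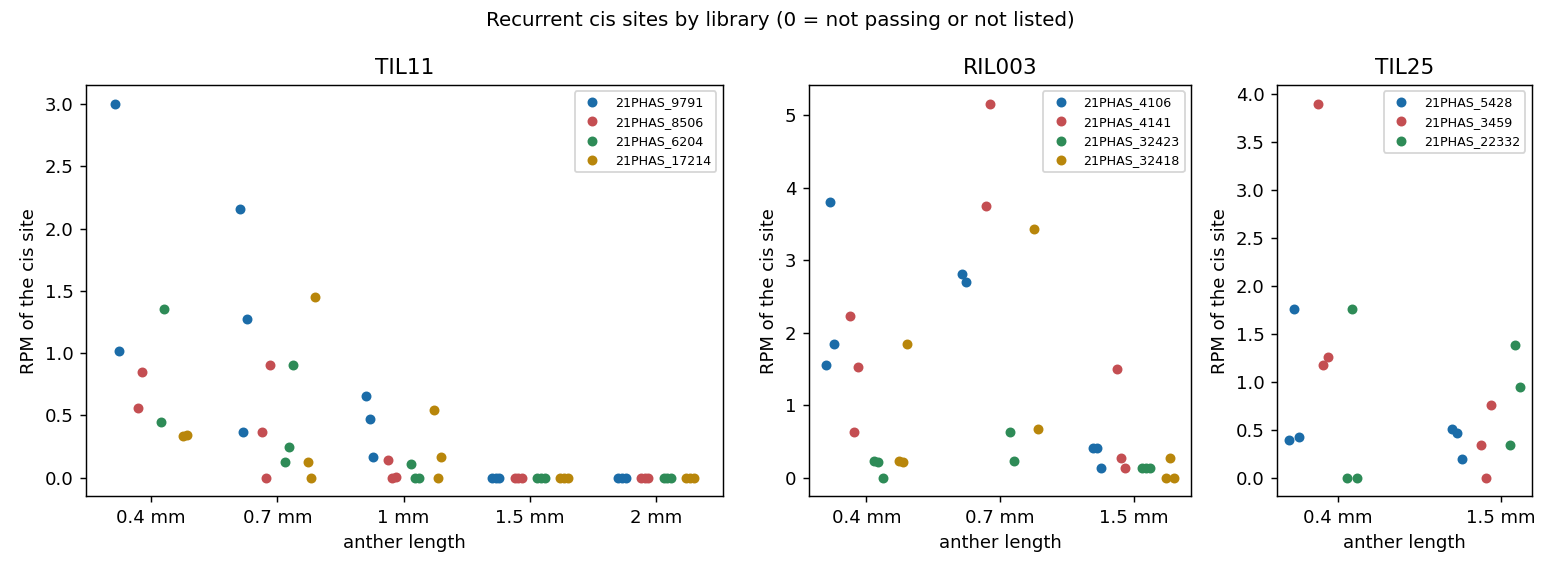
RPM of the *cis* site in each library (points) by anther length, for the most recurrent loci of TIL11, RIL003 and TIL25. A value of 0 means that the site did not pass or was not listed. TIL11_21PHAS_9791 runs from 3 RPM at 0.4 mm to no passing site at 1.5 and 2 mm, and RIL003_21PHAS_4106 stays above 0 in all 8 libraries.

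The *cis* sites lay in phase with the miR2118 cut. A passing miR2118 site was found on 119 of the 369 loci, and the distance from the strongest one to the *cis* site could be read for 120 sites on 118 loci. A dicing product of the complementary strand that starts from the miR2118 cut, with a 2-nt 3′ overhang, would cut the precursor 9 nt past a multiple of 21 from it. Of the 120 sites, 84 lay at a distance of 9 modulo 21 (70%, Wilson 95% interval 61.3 to 77.5%), and 9 lay at 0. Among the teosintes the share was 15 of 24 in TIL11, 14 of 19 in RIL003 and 14 of 21 in TIL25, and among the maize lines it was 14 of 17 in Il14H, 17 of 24 in B73, 7 of 11 in HP301 and 3 of 4 in Oh43. It was similar for loci seen in 1 library (57 of 83) and in 2 or more (27 of 37). *Trans* sites of other 21-nt phasiRNAs on the same kind of locus showed another pattern, with 372 of 426 at 0 and 12 at 9. Of the 48 *trans* sites that were not also miRNA sites, 12 were at 9 (25.0%), and of 48 listed sites of other miRNAs, 2 were. These shares are a description, with no test: the loci were called for phased small RNAs, the major RNA sets the position, and loci with related sequences are not independent.

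**Figure D4:**
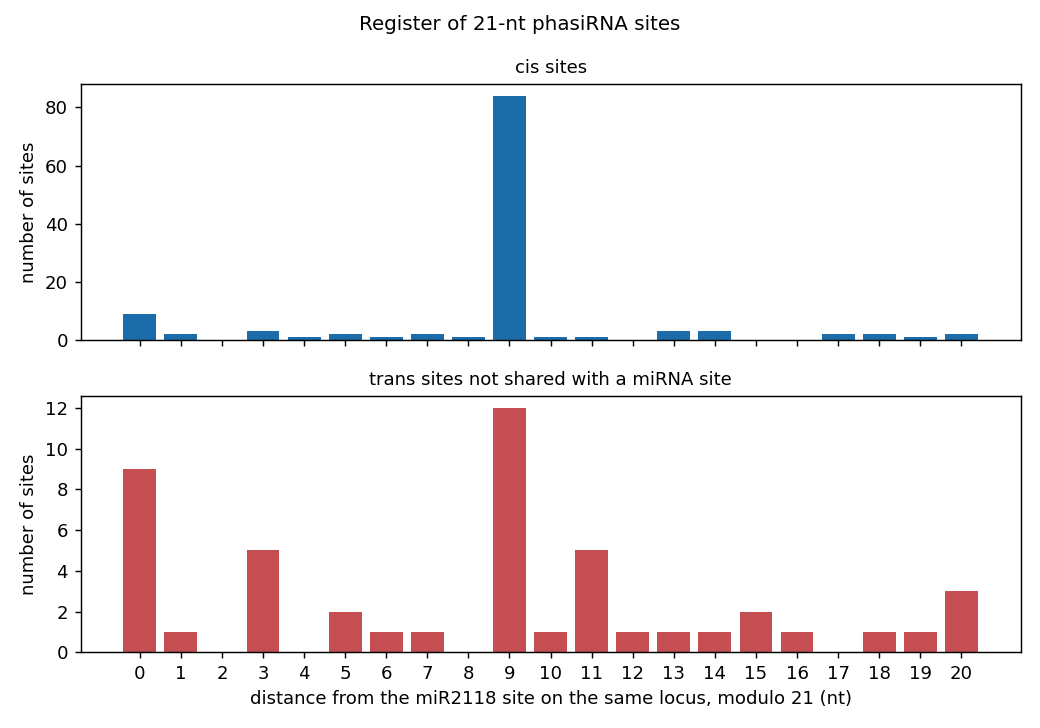
Number of sites by distance from the strongest passing miR2118 site on the same locus, modulo 21 (nt). The top panel holds the 120 *cis* sites and the bottom panel the 48 *trans* sites of 21-nt phasiRNAs that were not also miRNA sites. The *cis* sites peak at 9 with 84 sites.

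The phased sites were close to the miR2118 cut and always downstream of it. The 84 sites lay 30 to 324 nt downstream, with a median of 93 nt, and none of the 7 upstream sites was in phase. Within 210 nt downstream, 81 of 89 sites were in phase (91.0%, 83.3 to 95.4%), against 3 of 18 farther downstream (16.7%). No in-phase site lay at 9 nt, the shortest distance in this phase. From there in periods of 21 nt, 13 sites lay at 30 nt, 12 at 51 nt, 11 at 72 nt, 9 at 93 nt, 8 at 114 nt, 9 at 135 nt, 10 at 156 nt, 5 at 177 nt and 4 at the next period. Each of these distances held sites, and none held most of them. B73_21PHAS_7638 and TIL11_21PHAS_9791 lay at 30 nt, TIL25_21PHAS_3459 and B73_21PHAS_10411 at 93 nt and B73_21PHAS_27690 at 135 nt.

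**Figure D5:**
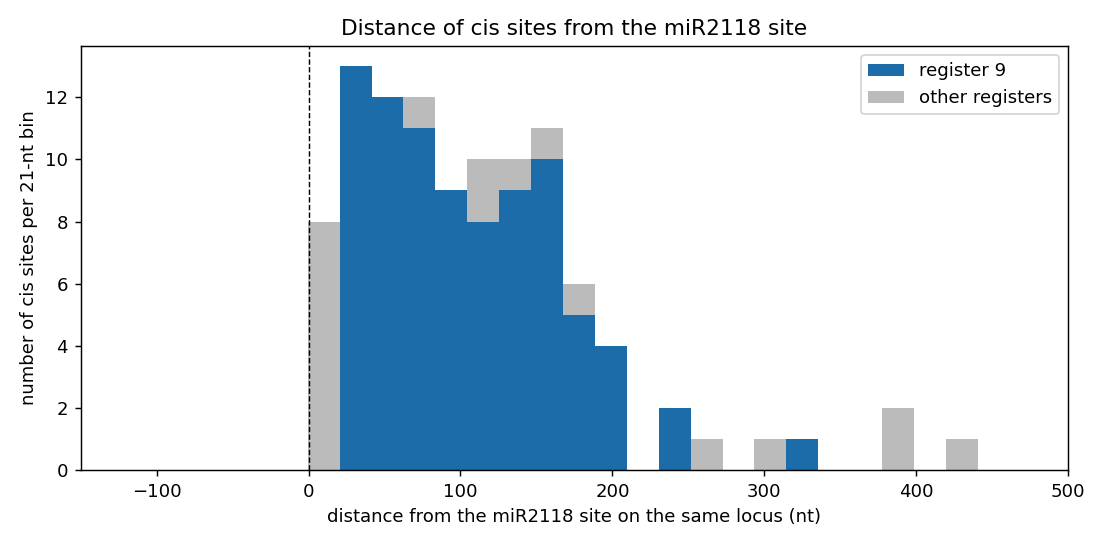
Distance of *cis* sites from the strongest passing miR2118 site on the same locus (nt, positive downstream), in bins of 21 nt. Blue marks sites at 9 modulo 21 and grey all others. Of 120 sites, 103 fall between -150 and 500 nt and are shown, and the 84 in-phase sites run from 30 to 324 nt.

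Where both were found on the same transcript, the *cis* site mostly had fewer reads than the miR2118 site. In 113 cases a locus had both a passing *cis* site and a passing miR2118 site at another position in the same library, on 86 loci. The median was 2 reads at the *cis* site and 21 reads at the miR2118 site, and the miR2118 value was higher in 109 of the 113 cases. The median ratio of the values was 13.0. These cases were 18.8% of the 600 passing combinations of locus and library once sites shared with miRNAs were set aside. The 2 kinds of site met unlike filters. All perfect-match *cis* sites passed, also on 1 read, whereas 3.37% of phasiRNA rows above an Allen score of 0 did. A miR2118 site need not pair perfectly, so this selection may raise the ratio, which was not tested. The share of loci with a passing miR2118 site had overlapping intervals in *cis* and other loci. In the 5 varieties with a complete list of major RNAs, 78 of 255 *cis* loci had one (30.6%, 25.3 to 36.5%), and 633 of 2003 other loci did (31.6%, 29.6 to 33.7%).

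Pooled over these 5 varieties, the share of major RNAs that began with uridine was 32.5% in *cis* loci and 10.9% in other loci. ARGONAUTE proteins sort small RNAs in part by the first nucleotide: AGO1 of Arabidopsis prefers uridine, and the germline ARGONAUTE MEL1 of rice prefers cytidine. The intervals over these 5 varieties were 27.1 to 38.5% of 255 *cis* loci and 9.59 to 12.3% of 2003 other loci, while adenosine took 39.6% and 55.3%. A locus whose major RNA comes from the precursor strand would fall among the other loci, since that RNA does not pair perfectly with the precursor. The strand of the major RNA was not separated here. No test was made, since loci are not replicates and varieties differ in the share of 5′ uridine. The share was higher still among loci that recurred, at 40 of 57 positive loci (70.2%, 57.3 to 80.5%) and 51 of 80 loci found in 2 or more libraries (63.8%), against 32 of 175 loci found in 1 library (18.3%). Within varieties, a 5′ uridine was present at 17 of 20 positive loci in Il14H against 21.4% of its other loci, and at 18 of 22 in TIL11 against 23.1%. In B73 it was 2 of 8 against 3.86%, in HP301 2 of 2 against 4.46%, and in Oh43 1 of 5 against 2.44%. Among all *cis* loci, positive or not, uridine began 32 of 59 in Il14H and 39 of 81 in TIL11. It began 6 of 67 in B73, 4 of 26 in HP301 and 2 of 22 in Oh43. The intervals of *cis* and other loci overlapped in B73, HP301 and Oh43 and did not in Il14H and TIL11.

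Recurrence and reads can also be given by first nucleotide. With the sequences known for TIL25 included, 51 of 111 *cis* loci with a 5′ uridine were positive in some group (45.9%, 37.0 to 55.2%), against 12 of 104 with adenosine (11.5%, 6.72 to 19.1%), 7 of 68 with cytidine and 0 of 15 with guanosine. The median of the highest value per locus was 3 reads with uridine and 1 read with each other nucleotide. Of 34 loci with a known sequence that reached 5 reads in some library, 28 began with uridine. Among loci with a known sequence, so did 19 of the 20 found in most libraries. RIL003 loci have no known sequence here and are left out, among them RIL003_21PHAS_4106 and RIL003_21PHAS_4141, which passed in 8 libraries each. These counts pool varieties that differ in first nucleotide, positive loci and libraries, which was not separated. Adenosine began 47 of 67 *cis* loci in B73, 19 of 26 in HP301 and 19 of 22 in Oh43, with 8, 2 and 5 positive loci. Uridine began 32 of 59 in Il14H and 39 of 81 in TIL11, with 20 and 22 positive loci. TIL11 had 14 libraries and each maize line 4 or 5. The in-phase share was 16 of 34 with uridine, 27 of 32 with adenosine, 20 of 24 with cytidine and 4 of 4 with guanosine. TIL11_21PHAS_9791, TIL11_21PHAS_6204, Il14H_21PHAS_4200 and B73_21PHAS_27690, printed above, all begin with uridine, whereas B73_21PHAS_12183 and Oh43_21PHAS_2918 begin with adenosine. Recurrent loci that are not printed went both ways. Oh43_21PHAS_5853, in 4 libraries, begins with adenosine. So do B73_21PHAS_35647, B73_21PHAS_43223 and B73_21PHAS_52764, in 3 libraries each like B73_21PHAS_27690. TIL11_21PHAS_17214 and Il14H_21PHAS_27893 begin with uridine.

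Some *cis* sites were found with the same small RNA in several varieties. The 298 *cis* loci with a known sequence had 237 different major RNAs, of which 188 had a passing *cis* site in 1 variety, 37 in 2, 12 in 3 and none in 4 or more. In all, 139 of the 237 were also the major RNA of a *21-PHAS* locus in another variety. For 12 shared major RNAs the distance to miR2118 could be read in 2 or more varieties. It was identical in 10 of them, and in 9 it was in phase in every such variety. The other identical one was that of B73_21PHAS_54597, at 0 nt, where the site is the miR2118 site. Distances differed for the RNA of Il14H_21PHAS_28711 (903 nt in Il14H, 825 nt in TIL11 and 66 nt in TIL25). They also differed for that of HP301_21PHAS_27295 (175 nt in HP301 and 130 nt in B73). The site of the B73_21PHAS_47038 RNA lay 30 nt downstream of miR2118 in B73, in HP301 (HP301_21PHAS_22970) and in TIL11 (TIL11_21PHAS_38986). It had 0.151 and 0.229 RPM in the B73 libraries, 0.190 RPM in 1 HP301 library and 0.181 RPM in 1 TIL11 library. The site of the B73_21PHAS_12183 RNA lay 156 nt downstream in B73, HP301 and Il14H, from 1 or 2 reads each. The site of the Oh43_21PHAS_2918 RNA lay 72 nt downstream in Oh43 and in Il14H (Il14H_21PHAS_2230). That of the TIL25_21PHAS_22575 RNA lay 135 nt downstream in TIL25 and TIL11. The RNA of TIL11_21PHAS_9791 also had a passing site in 2 Il14H libraries, at Il14H_21PHAS_6521 (0.958 and 0.346 RPM), and in all 6 TIL25 libraries at TIL25_21PHAS_5428. That of TIL11_21PHAS_40088 passed in all 3 Il14H libraries of 0.4 mm at Il14H_21PHAS_25525 (1.05, 0.0958 and 0.951 RPM) and in 4 TIL25 libraries at TIL25_21PHAS_22332, while in TIL11 it passed at 0.7 and 1 mm but not at 0.4 mm. Recurrence across varieties thus covered both frequent loci and loci seen once per variety.

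A few members were miR2118 sites as well. Of the 615 passing *cis* sites, 15, at 6 loci, coincided in their library with a passing site of a trigger miRNA (miR482, miR2118 or miR2275). B73_21PHAS_54597 was one of them, with 0.227 and 0.458 RPM in the B73 libraries of 0.4 mm (the second over 2 positions) and 0.331 RPM in 1 ago18HT library. This locus, at chr10:120346275-120348687, overlaps the RefSeq gene MIR2118a, which encodes a precursor of miR2118 itself, and its major RNA has 22 nt and not 21. Oh43_21PHAS_39902 and TIL11_21PHAS_45236 have the same major RNA. TIL25_21PHAS_25047 gave 3.12 and 1.76 RPM at 0.4 mm and 0.378 RPM in 1 library at 1.5 mm. At such sites a *cis* cut and a miR2118 cut cannot be told apart. With them left out, the in-phase share was 84 of 113 (74.3%).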

How the data were processed

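The members and lists were chosen with earlier results of these data known. Per the study's methods, the authors ran the nanoPARE pipeline, including its EndCut step, on each pair of Smart-seq2 and nanoPARE libraries, without pooling replicates (5 ng total RNA, 76-nt single-end reads). Its version is not given in the sources used here. The authors deposited 1 miRNA and 1 phasiRNA table per replicate, 126 in all, with the RPM of each predicted site, an Allen score of mispairing and an adjusted p-value. A column of fold changes against the authors' background was not used. Target sequences of loci extended 500 bases beyond each end, as read from the deposited positions.

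A *cis* site was a row whose small RNA 21PHAS_n_variety named the target variety_21PHAS_n. The RPM of 1 read was taken as the commonest deposited RPM of a library, and 77.4 to 89.9% of values were whole multiples of it within 0.01 reads. Depth and reads behind a site follow from it. Loci per library, as log2(number + 1), and summed RPM, as log2(RPM + 0.1), were compared by exact two-sided permutation tests, adjusted over 14 tests. Libraries with the same replicate number showed no common deviation from their group means (correlation -0.03 to 0.03). The commonest value of a library is 1 read, so such a correlation may miss a pairing and does not exclude it. Results with the replicate number as a block are given below. The EndCut p-value covers one library, and the permutation tests cover the spread between plants. Alternatives were other thresholds, filters, pseudocounts, left-out replicates and, chosen after seeing the data, thinning to the shallowest library, 0.5 mm alone for the *ago18* genotypes, and 2 subsets of sites for the register. Named loci were the 3 found in most libraries and the strongest of each variety, positive B73 loci, loci positive at several lengths, loci with a major RNA shared by 3 varieties, and positive sites shared with miRNAs. Major RNA sequences came from the study's list of loci, which was complete for 5 of 7 varieties. Gene overlaps used RefSeq names on the B73 NAM-5.0 assembly. Scripts ran in Python 3.11.15 with numpy 2.4.6, pandas 2.3.3 and scipy 1.17.1 and were tested on simulated data. nanoPARE records without tables were not analysed here.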

Additional observations from a re-analysis of the deposited data

Results flagged for a closer look

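Counted as loci per library, the change of *cis* loci with anther length ran in opposite directions in TIL25 and in the other varieties. The premeiotic minus later difference on the log2(loci + 1) scale was 3.67 in the maize inbred lines, 4.2 in TIL11 and 1.60 in RIL003, with every early library above every later one, and -1.55 in TIL25, with every 0.4-mm library below every 1.5-mm one. The difference between varieties was not tested. In TIL25 the 0.4-mm libraries were the shallower ones (1.71 to 2.56 against 4.33 to 5.97 M reads), and summed RPM overlapped between its lengths. Its loci per M reads overlapped as well. With a minimum of 1 read of the shallowest library its difference in loci was -0.03, so the opposite direction in TIL25 depends on how depth is treated.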

How the results depend on the processing

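The stage differences of the maize inbred lines and of TIL11 kept their direction and their call for both loci and summed RPM under every alternative run, left-out replicates included. With the replicate number as a block, RIL003 kept its differences (1.60 for loci, 3.46 for RPM, exact permutation tests, adjusted p = 0.0889 each) and *ago18* stage its own (2.81 and 4.60, adjusted p = 0.0547 each), but the calls were lost, since fewer exchanges remain. The block changed no other call. Leaving out 1 replicate gave 1.44 to 1.78 for RIL003 loci and 2.85 to 3.86 for RIL003 RPM. For the *ago18* genotypes it gave -0.66 to 0.061 for loci and -0.35 to 0.81 for RPM, none of them called. A minimum of 1 read of the shallowest library ended the *ago18* stage calls (0.72 for loci, 2.42 for RPM, exact permutation tests, adjusted p = 0.0875 each) and turned the *ago18* genotype difference in loci to 0.40, the TIL25 difference in RPM to 0.51 and the maize against teosinte difference in loci to -1.85. The last was also turned by thinning (-0.74) and by dividing loci by depth (-2.02 loci per M reads, with no log). The *ago18* genotype difference in RPM turned to -0.18 as a mean of differences within lengths and to -0.54 at 0.5 mm alone. In loci it went from -0.39 to -0.73 and -2.19 under these settings (exact permutation tests, adjusted p = 0.127 each). Positive pairs of locus and group went from 116 to 457 with 1 replicate and to 63 with 2 reads in each. The in-phase share ran from 68.2 to 74.3%. The causes were not tested beyond what these settings do by construction. Depth limits most counts, since 1 read is worth 0.0536 to 0.743 RPM.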
